A study of Petunia x hybrida with 8 samples.

Results

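The genes described are 72 IDs whose transcripts were at least 2-fold lower in every odo1i corolla library than in every wild type library of Petunia x hybrida. They were selected by level from the 35812 IDs of the count table. The highest of the 3 odo1i values had to be under 0.5 of the lowest of the 3 wild type values, in CPM, the counts per 1000000 counts of the library. The wild type mean also had to be at least 10 CPM and the mean over all 6 libraries under 1000 CPM. IDs on scaffold 00408 were barred. Neither that bar nor the upper limit removed an ID. All values of these libraries that separate the groups were therefore used to choose the genes, and they are given below as a description. The fits' fold changes, standard errors and calls belong to that description and support nothing.

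Corolla RNA was primed with oligo-dT and sequenced from wild type petunia (replicates 1, 2 and 4) and from plants named odo1i (replicates 1, 2 and 4). The labels give no age, time of day, cultivar or promoter, and they do not say whether a replicate is 1 plant or a pool. ODO1 is the R2R3-MYB transcription factor ODORANT1, and odo1i is taken here to mean ODO1 silenced. Chromatin of corolla was also recovered with an antibody against GFP, from 1 library named pODO1 and 1 named 35S.

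ODORANT1 is known in petunia petals as an activator of genes that supply precursors of the floral scent. It acts on the shikimate pathway, from which the aromatic amino acid phenylalanine is made, and phenylalanine is turned into the benzenoid and phenylpropanoid volatiles that the corolla emits in the evening. R2R3-MYB proteins bind DNA in promoters and raise or lower transcription of their targets. The count table carries IDs only, so none of the 72 genes is given a name or a role here, and neither the level of ODO1 nor the genes of the scent pathway were analysed.

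Library totals ran from 18612881 to 20591367 counts. In each library 19311 to 21241 IDs had at least 1 count, and the 10 IDs with most counts took 8.41% to 11.5% of the total, least in wild type replicate 4. That library stood apart from the rest and received a quality weight of 0.239 in limma-voom, where the other libraries received 0.808 to 2.45. Since the tissue was measured in bulk, fewer cells of a type and less RNA per cell cannot be told apart.

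Together the 72 genes held a small part of the transcriptome, and that part was several times smaller in odo1i. Their summed level was 7859, 7896 and 7525 CPM in wild type replicates 1, 2 and 4. It was 2106, 1952 and 1344 CPM in odo1i replicates 1, 2 and 4. In percent of all counts, the genes took 0.752 to 0.790 in wild type and 0.134 to 0.211 in odo1i. Leaving out the 2 genes with most reads, the sums were 5337 to 5505 CPM in wild type and 776 to 1302 CPM in odo1i. The lowest odo1i sum was that of replicate 4 in both cases.

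The size of the difference varied widely among the genes. Wild type means had a median of 24.7 CPM (quartiles 17.1 and 81.5) and odo1i means a median of 5.20 CPM (quartiles 1.78 and 15.5). The ratio of the group means, wild type over odo1i, had a median of 5.31 and quartiles of 3.43 and 15.4, with 2.48 as its lowest value. It was under 4 in 23 genes, from 4 to under 10 in 25 and at least 10 in 24. Of the 72 genes, 40 had a wild type mean under 30 CPM, 18 had 30 to under 100 CPM and 14 had at least 100 CPM. CPM is not divided by transcript length, so levels are compared between libraries and not between genes.

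**Figure D1:**
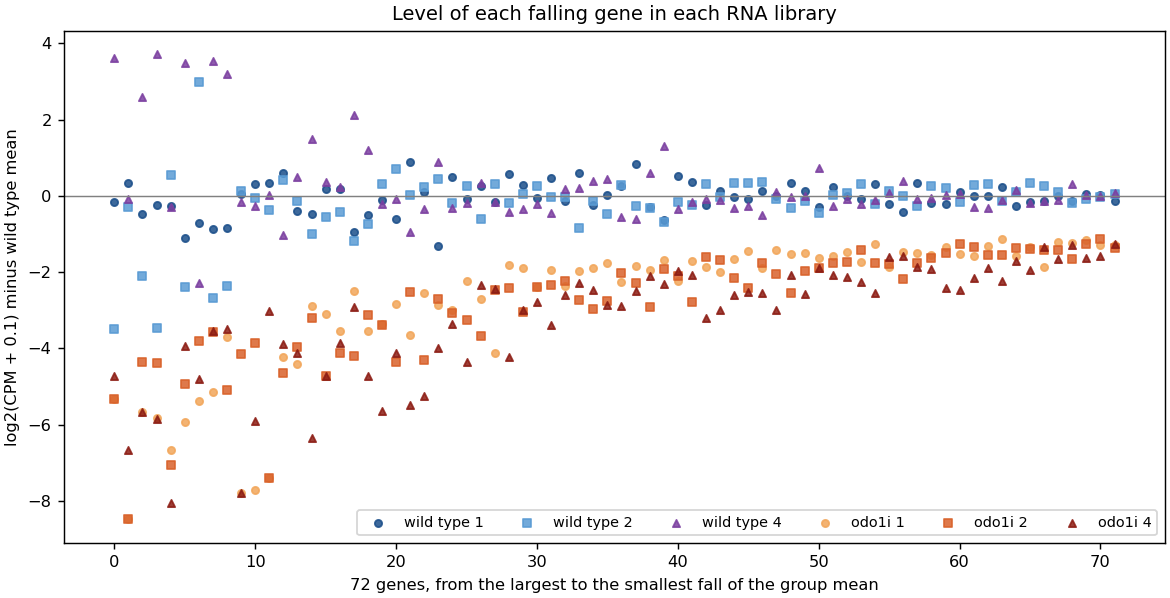
Level of each of the 72 genes in each RNA library, as log2(CPM + 0.1) minus the mean of the 3 wild type libraries on the same scale, with genes ordered along the x axis from the largest to the smallest ratio of group means. Each point is 1 library; the spread among wild type libraries is widest at the left, where several genes have wild type replicate 4 far above the other libraries.

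Fitted across all genes, 70 of the 72 were tested, as 2 did not pass the filter on low counts. The edgeR quasi-likelihood test called 34 of the 70 lower at a Benjamini-Hochberg adjusted p under 0.05, where 0.255% of all 17667 tested genes were called lower. DESeq2 gave an adjusted p for 69 of them and called 67 lower (3.35% of all genes with an adjusted p), and limma-voom with library quality weights called 61 (3.03%). Plain limma-voom called 37 (0.266%), edgeR with RLE size factors 34 (0.266%), edgeR without a filter 48 (0.296%) and edgeR with the replicate number as a block 48 (0.509%). The number of edgeR calls changed when any 1 library was left out, which also leaves fewer libraries to fit. The cause was not tested. Without wild type replicate 4 edgeR called 54 of the genes (1.1% of all tested genes). Without wild type replicate 1 it called 2 (0.011%), without wild type replicate 2 it called 5 (0.0272%) and without odo1i replicate 4 it called 4 (0.0219%). Without odo1i replicate 1 or 2 it called none, and none lower of all 18278 and 18365 tested genes. In these fits 2255 and 1673 of all genes had an unadjusted p under 0.05 in either direction, with all 72 among them. The groups did not overlap at any of the 72 genes by choice, and at 9.07% of all tested genes odo1i lay below wild type without overlap. The 2-fold gap alone held at 0.821% of all tested genes. Among IDs within its limits of level the definition kept 0.708%. With the direction mirrored, and the minimum set on the odo1i mean, it kept 83 IDs, or 0.825% of IDs within those limits. Nothing is read from these counts, because the genes were chosen by the same contrast. The fitted log2 fold change, odo1i relative to wild type, had a median of -2.43 over the 70 genes and -0.03 over all tested genes, and ran from -8.67 to -1.36.

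**Figure D2:**
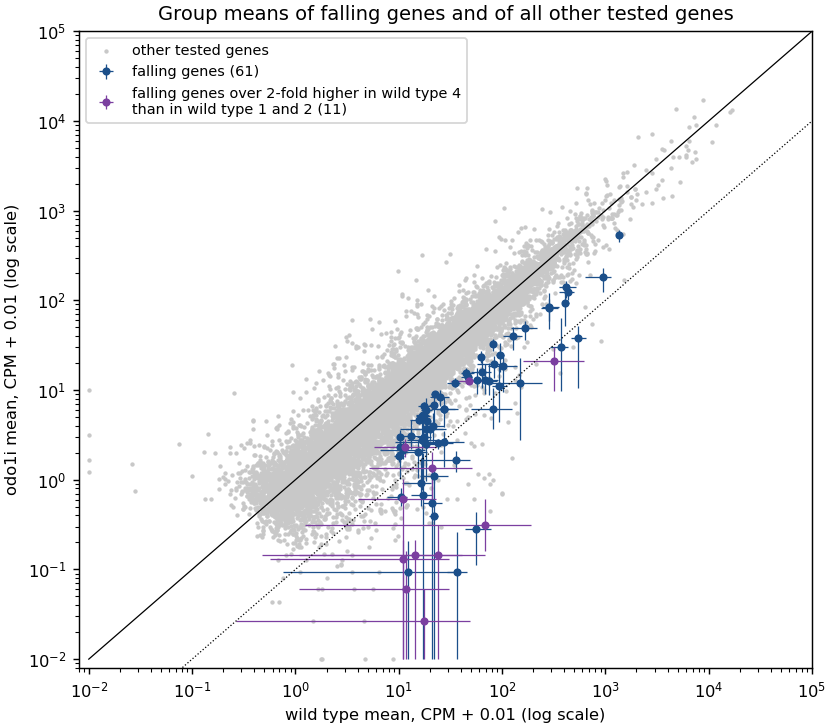
Mean CPM in wild type (x axis, log scale) and odo1i (y axis, log scale) with 0.01 CPM added. Grey points are tested genes outside the set, coloured points are the 72 genes with bars from the lowest to the highest of 3 libraries, the solid line marks equal means and the dotted line an odo1i mean 10-fold lower. The 11 genes in purple were over 2-fold higher in wild type replicate 4 than in replicates 1 and 2, and most have wide horizontal bars.

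The genes with the deepest differences had either an even or an uneven wild type level. Of the 24 genes with group means at least 10-fold apart, 11 had a highest wild type value under 3 times the lowest and 13 did not. Their odo1i means had a median of 0.619 CPM, against a wild type median of 21.9 CPM. In this class edgeR called 7 of 24 lower, with 2 not tested, against 13 of 25 in the class from 4-fold to 10-fold and 14 of 23 in the class under 4-fold. Over all tested genes the share called lower was 0.255%. The classes were cut on the contrast that is tested, so nothing is read from these counts.

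Peaxi162Scf01226g00004 was among the even genes and all but vanished from odo1i. It measured 45.6, 29.4 and 34.0 CPM in wild type replicates 1, 2 and 4, against 0, 0 and 0.254 CPM in odo1i, the last from 5 counts. The fitted log2 fold change was -8.67 ± 0.75 (SE, n = 3 per group), the lowest of the set, and its size rests on those 5 counts.

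Peaxi162Scf00100g01521 showed the same picture with reads left in each odo1i library. Wild type libraries held 44.7, 78.5 and 43.4 CPM, and odo1i libraries held 0.425, 0.299 and 0.102 CPM, from 8, 6 and 2 counts. Its means were 55.5 ± 19.9 CPM and 0.275 ± 0.163 CPM (SD, n = 3 each). The log2 fold change was -7.68 ± 0.52 (SE). The highest odo1i value was 0.0098 of the lowest wild type value. This gene and Peaxi162Scf01226g00004 were 2 of the 3 with the lowest edgeR adjusted p, and the other was Peaxi162Scf00467g00913. That gene measured 16.1, 19.2 and 29.9 CPM in wild type and 0.902, 1.25 and 1.12 CPM in odo1i, with a log2 fold change of -4.35 ± 0.32 (SE). Its 3 odo1i libraries were close to each other, while wild type replicate 4 was the highest of its group.

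In 4 genes of the even kind, chosen after their values were seen, the odo1i reads came wholly or mostly from a single library, and that library was not the same one. Peaxi162Scf00942g00005 had 468, 470 and 365 counts in wild type and 0, 23 and 0 in odo1i. Peaxi162Scf01192g00316 had 434, 254 and 318 counts in wild type and 0, 0 and 39 in odo1i. For Peaxi162Scf00008g00386 the counts were 538, 394 and 322 in wild type and 0, 27 and 5 in odo1i. The fourth is Peaxi162Scf01226g00004, with its 5 counts in odo1i replicate 4. The first had its reads in odo1i replicate 2, as did most of the third, and the others in replicate 4. In all 4 genes odo1i replicate 1 had no count.

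Over the whole set, 11 genes had 0 counts in at least 1 odo1i library and 5 had 0 in 2 of them, while no gene had 0 in all 3. The zeros fell in odo1i replicate 1 for 9 genes, in replicate 2 for 4 and in replicate 4 for 3. A count of 0 allows a level of up to 0.159, 0.150 and 0.153 CPM in odo1i replicates 1, 2 and 4 (3 counts, for counting error only).

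Wild type replicate 4 stood above the other wild type libraries in a second group of genes. In 11 of the 72 (15.3%) it was more than 2-fold above both other wild type libraries, a pattern seen once each for replicates 1 and 2. Among the 10098 other IDs within the same limits of level, 9.57% showed it for replicate 4. Of these 11 genes, 9 had a wild type mean at least 10 times the odo1i mean. Over the 11, wild type replicate 4 ranged from 22.8 to 616.2 CPM with a median of 49.1 CPM. The same genes had medians of 5.78 and 1.23 CPM in wild type replicates 1 and 2, and medians of 0.159, 0.549 and 0.203 CPM in odo1i replicates 1, 2 and 4.

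Peaxi162Scf00052g01011 is the extreme of these that was tested. It measured 12.2, 1.23 and 191.8 CPM in wild type and 0.159, 0.599 and 0.153 CPM in odo1i. The wild type values span 156-fold, and the fitted log2 fold change of -7.77 had a standard error of 1.97. Peaxi162Scf00862g00111 was similar, with 3.55, 1.07 and 30.4 CPM in wild type and 0, 0.150 and 0 CPM in odo1i. Its 659 wild type and 3 odo1i counts give a ratio of 219, with an exact 95% interval of 74.6 to 1064 that covers counting error only.

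The gene with fewest odo1i reads was Peaxi162Scf00688g00432, with 72, 5 and 913 counts in wild type and a single count in odo1i, in replicate 4. It was 1 of the 2 not tested, with Peaxi162Scf00212g00715, and both had most of their wild type reads in replicate 4. Its ratio of 987 has an exact interval from 177 to 39007, again for counting error only. Peaxi162Scf00164g00108 had the reverse pattern, with 2.48, 33.2 and 0.752 CPM in wild type and at most 0.200 CPM in odo1i. These 3 genes were picked out after their values were seen.

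Leaving out a library can only widen the gap between the groups, so a gene can then be lost only through the limits of level. Without wild type replicate 4 the definition kept 61 of the 72 genes, and the 11 it lost had a mean under 10 CPM in wild type replicates 1 and 2. Of those 11 lost genes, 9 were among the 11 raised in replicate 4. Over the 70 genes the median log2 fold change was -2.35 without that library and -2.43 with it. Of the 11 genes raised there 9 were fitted, and their median was -3.11 without the library and -4.16 with it. Without the filter on low counts all 11 were fitted, and the median with all 6 libraries was -6.42. What set wild type replicate 4 apart was not tested.

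The 4 genes with the highest wild type means had ratios of group means from 2.52 to 14.2. Peaxi162Scf00071g00324 had 1411, 1297 and 1382 CPM in wild type and 611, 566 and 443 CPM in odo1i. Its means were 1363 ± 59.2 and 540.2 ± 86.8 CPM (SD, n = 3 each), and its log2 fold change was -1.37 ± 0.19 (SE). The difference was modest but even, with a highest wild type value 1.09 times the lowest.

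Peaxi162Scf00780g00005 measured 1111, 1121 and 637.6 CPM in wild type and 192.8, 227.8 and 124.1 CPM in odo1i. Wild type replicate 4 was the lowest of its group here, in contrast to the genes above, and the highest odo1i value was 0.357 of it. The log2 fold change was -2.44 ± 0.34 (SE). Peaxi162Scf01578g00018 had 501.5, 435.5 and 355.3 CPM in wild type and 143.1, 125.1 and 101.7 CPM in odo1i, with a log2 fold change of -1.85 ± 0.21 (SE). For both genes replicate 4 was the lowest library in each group.

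Peaxi162Scf00652g00015 had the largest difference among these 4 genes. Wild type libraries held 497.1, 655.3 and 459.7 CPM, and odo1i libraries held 52.2, 50.8 and 10.6 CPM. Its log2 fold change was -3.86 ± 0.61 (SE), and odo1i replicate 4 was far under the other odo1i libraries. A similar spread was seen at Peaxi162Scf00067g00252, chosen after its values were seen. It measured 392.6, 436.0 and 290.4 CPM in wild type and 63.2, 18.7 and 9.66 CPM in odo1i. Its odo1i libraries thus differed widely, all of them under the wild type range.

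Odo1i libraries differed among themselves at many of the genes. At 27 of the 72 (37.5%) replicate 4 was under replicate 2 and replicate 2 under replicate 1, an order that held for 17.6% of the other IDs within the same limits of level. Replicate 4 was the lowest odo1i library at 41 of the 72 genes (56.9%), against 27.1% of the other IDs within the same limits of level. These limits are on the wild type mean and the mean over all 6 libraries. Odo1i levels were therefore not matched, and 15 of the 72 genes had an odo1i mean under 1 CPM. Replicate 1 was the highest odo1i library at 40 genes (55.6%), against 33.4% of the others. At 23 genes (31.9%) replicate 1 was at least 2 times replicate 4, which held for 2.14% of the others. At 10 genes (13.9%) replicate 4 was at least 2 times replicate 1, which held for 3.29% of the others. Of these 10, 9 had 0 counts in replicate 1 and so met the condition at any count in replicate 4. The other was Peaxi162Scf00035g02915, with 18 counts in replicate 1 and 65 in replicate 4. The 3 genes with 0 counts in replicate 4 are likewise among the 23. An ID with 0 counts in both libraries meets both conditions. Peaxi162Scf00942g00005 and Peaxi162Scf00862g00111 are in both counts for that reason only. The median of log2(CPM + 0.1) minus the wild type mean was -1.92 in odo1i replicate 1, -2.41 in replicate 2 and -2.60 in replicate 4. For the other IDs these medians were 0.01, 0.03 and 0.07.

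**Figure D3:**
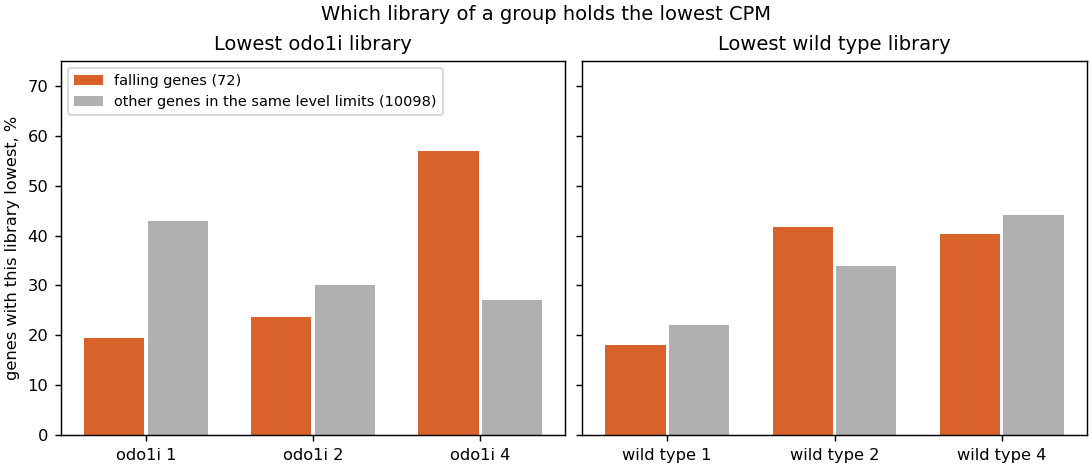
Share of genes, in percent, at which each odo1i library (left) or each wild type library (right) had the lowest CPM of its group. A tie was counted for the lower replicate number. Orange bars are the 72 genes and grey bars the 10098 other IDs within the same limits of level; odo1i replicate 4 was lowest at 56.9% of the 72 genes and 27.1% of the others.

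The order of libraries within odo1i was not part of the definition, but with 1 library per replicate number it has no replicate check and was not tested. Replicate 4 was the lowest at 17 of 23 genes under 4-fold, 16 of 25 from 4-fold to 10-fold and 8 of 24 at 10-fold or more. A tie for the lowest was counted for the lower replicate number. Peaxi162Scf00942g00005 and Peaxi162Scf00862g00111, both in the last class, had 0 counts in replicates 1 and 4 and were counted for replicate 1. In the mirrored set of 83 genes higher in odo1i, replicate 4 was the highest odo1i library at 64 (77.1%). It was the highest at 41.8% of the IDs within the limits of level that are not among the 72. The mirrored definition sets the minimum of 10 CPM on the odo1i mean instead of the wild type mean. These shares are therefore not over IDs with like limits. The total of odo1i replicate 4, 19669253 counts, lay between those of the other odo1i libraries. Its share of counts in the 10 IDs with most counts was 10.4%, against 11.5% and 11.01%. The part of these values in the order was not tested.

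Spread within groups is given as a description, since the definition bears on it. The coefficient of variation over the 3 odo1i libraries had a median of 36.6% in the 72 genes and 11.01% in the other IDs. Restricted to odo1i means of 1 to 30 CPM it was 33.7% over 45 of the genes and 14.3% over 4366 others. In wild type the medians were 22.9% and 17.7%. A highest wild type value at least 3 times the lowest was found in 14 of the genes (19.4%) and in 9.03% of the others.

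At the limit of the definition the values changed smoothly. Just inside lay Peaxi162Scf00828g00035 and Peaxi162Scf00413g00063, whose highest odo1i value was 0.499 and 0.496 of the lowest wild type value. Peaxi162Scf00828g00035 had 24.8, 30.9 and 19.9 CPM in wild type and 9.92, 8.49 and 6.66 CPM in odo1i. Peaxi162Scf00413g00063 had 21.1, 16.6 and 16.8 CPM in wild type and 8.23, 6.14 and 3.76 CPM in odo1i. Just outside were Peaxi162Scf00327g00911 and Peaxi162Scf00107g01914, with ratios of 0.501 and 0.502. In all, 28 genes had a ratio of at least 0.4, 5 had one under 0.1, and 41 further IDs lay from 0.5 to 0.6.

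For the limit of level, Peaxi162Scf00003g01629 was just inside with a wild type mean of 10.05 CPM. It measured 9.08, 9.77 and 11.3 CPM in wild type and 1.86, 2.05 and 1.58 CPM in odo1i, and its log2 fold change was -2.49 ± 0.28 (SE). Peaxi162Scf00360g00813 was just outside with a wild type mean of 9.86 CPM and a ratio of 0.423. Among the 45 genes that edgeR called lower, 11 were not in the set, 5 of them for a wild type mean under 10 CPM and 6 for a ratio of at least 0.5.

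By position the genes were scattered. The 72 IDs lay on 69 scaffolds, 3 of which carried 2 genes each, and no 2 of the genes were next to each other in ID order among tested genes. On scaffold 00071, Peaxi162Scf00071g01213 accompanied the gene of many reads described above. It measured 11.7, 7.62 and 12.1 CPM in wild type and 0.796, 0.499 and 0.610 CPM in odo1i, a log2 fold change of -4.06 ± 0.36 (SE). The ratio of group means was thus 16.5 for one gene of this scaffold and 2.52 for the other.

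The pair on scaffold 00013 also differed in size. Peaxi162Scf00013g00440 had 241.9, 133.0 and 67.9 CPM in wild type and 10.2, 22.5 and 2.80 CPM in odo1i, with a log2 fold change of -3.67 ± 0.80 (SE). Its values were uneven in both groups, with replicate 4 the lowest in each. Peaxi162Scf00013g03440 had 14.5, 19.5 and 17.1 CPM in wild type and 6.69, 5.99 and 3.10 CPM in odo1i, with a log2 fold change of -1.74 ± 0.34 (SE).

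Scaffold 00486 carried the remaining pair. Peaxi162Scf00486g00310 had 82.6, 80.03 and 80.9 CPM in wild type and 33.0, 36.8 and 27.4 CPM in odo1i. Its highest wild type value was 1.03 times the lowest, the smallest spread among the 72 genes, and its log2 fold change was -1.37 ± 0.16 (SE). Peaxi162Scf00486g00026 had 17.7, 19.2 and 27.5 CPM in wild type and 5.57, 2.60 and 3.71 CPM in odo1i, a log2 fold change of -2.47 ± 0.34 (SE).

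The tested genes on either side of the 72 in ID order, which is taken as the order on the scaffold and was not checked, numbered 126. Their median log2 fold change was -0.13, against -0.03 for all tested genes, and 63.5% of them were below 0, against 52.4%. A fitted log2 fold change of -1 or lower was found in 24 (19.0%), against 9.27% of all tested genes, and one of 1 or higher in 5 (3.97%), against 4.31%. Of those 24 neighbours, 13 were over 2-fold higher in wild type replicate 4 than in both other wild type libraries. Without that library the count was 13 (10.3%), against 5.50% of all tested genes. No neighbour was called lower by edgeR or limma-voom on all 6 libraries without a block. In these fits 19 and 16 of the 126 were lower at an unadjusted p under 0.05. Of all 17667 tested genes, 2695 and 2467 had such a p in either direction. DESeq2 called 11 neighbours lower (3.35% of all genes with an adjusted p) and limma-voom with quality weights 10 (3.03% of all tested genes). The edgeR test called 5 neighbours lower without wild type replicate 4 (1.1% of all tested genes) and 1 with the replicate block (0.509%). One neighbour was called higher by edgeR. These neighbours were measured in the same libraries that chose the genes, and the difference was not tested.

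The peak lists were not used to choose the genes and bear on where the GFP-carrying protein was recovered on the same scaffolds. Each construct has 1 library, so these values have no replicate check, and the place of a gene on its scaffold was not used here. All 72 genes lay on scaffolds with peaks of both constructs, as did nearly all tested genes. Scaffolds of the genes held 6925 pODO1 peaks and 7514 35S peaks. The median gene had 81 pODO1 and 92 35S peaks on its scaffold, against 72 and 79 over all tested genes.

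Peak density on the scaffolds of the genes was near that of tested genes in general. Per 100 kb of scaffold, with the last peak end taken as the end, the median was 6.95 pODO1 peaks (quartiles 5.25 and 8.62; order-statistic 95% interval of the median 5.85 to 7.77). Over all tested genes it was 6.31 (quartiles 4.23 and 7.86) and over the other IDs within the same limits of level 6.41. For the 35S list the medians were 7.28 for the genes and 6.85 for all tested genes. The medians of the pODO1 list over all tested genes and over the other IDs lie within the interval. That interval treats the 72 genes as independent, although 3 scaffolds carry 2 of them each. A difference was not tested. Peaxi162Scf01226g00004, the gene with the lowest fold change, had the highest density of 17.2, from 10 peaks on a scaffold whose last peak ends at position 58097.

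**Figure D4:**
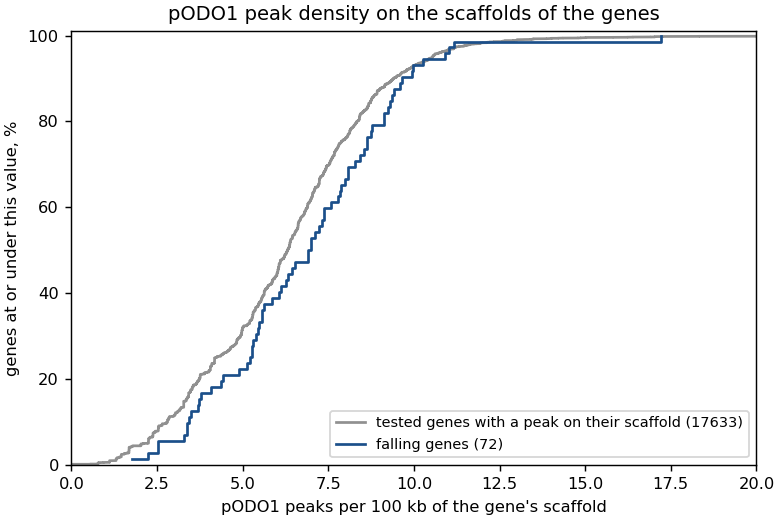
Cumulative share of genes, in percent, by the number of pODO1 peaks per 100 kb of the scaffold that carries the gene. The blue line is the 72 genes and the grey line the 17633 tested genes with a peak on their scaffold, of which 27 lie beyond the axis at 20; the lines run close together, with medians of 6.95 and 6.31.

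Strong peaks were shared between constructs on the scaffolds of a minority of the genes. A pODO1 peak with a deposited fold enrichment of at least 10 that overlapped a 35S peak by at least 1 base lay on the scaffold of 13 of the 72 genes (18.1%, exact 95% binomial interval 9.98 to 28.9). The same held for 13.8% of all tested genes and 13.7% of the other IDs within the same limits of level, both inside that interval. It also treats the genes as independent, and a difference was not tested. The highest pODO1 enrichment on the scaffold had a median of 8.36 for the 72 genes and 8.36 for all tested genes. Of the pODO1 peaks on scaffolds of the genes, 43.5% overlapped a 35S peak, against 43.3% on scaffolds of all tested genes, and the median enrichment was 4.28 in both.

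Among these strong shared peaks, 4 of the highest are given with their positions, counted from 1 on the Peaxi162 scaffolds of the peak lists. The highest was at 2800473 to 2800628 of scaffold 00016, which carries Peaxi162Scf00016g01036, with 16.3-fold enrichment in the pODO1 list and 17.8-fold in the 35S list. Scaffold 00002, which carries Peaxi162Scf00002g00372, had a peak at 946397 to 946541 with 14.3-fold and 11.5-fold. On scaffold 00130, with Peaxi162Scf00130g00326, a peak at 865014 to 865173 had 14.1-fold and 8.17-fold. Scaffold 00031, with Peaxi162Scf00031g00715, had one at 1343092 to 1343326 with 14.0-fold and 7.37-fold. The last peaks of these scaffolds end between positions 1476794 and 5560496, so a peak on the scaffold need not be near the gene.

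The genes on those 4 scaffolds had differences within the range of the set. Peaxi162Scf00016g01036 had 88.6, 103.8 and 57.3 CPM in wild type and 21.8, 23.7 and 13.7 CPM in odo1i. Peaxi162Scf00002g00372 had 353.5, 245.1 and 263.5 CPM in wild type and 119.5, 84.1 and 48.5 CPM in odo1i. For Peaxi162Scf00130g00326 the values were 89.6, 76.8 and 57.6 CPM in wild type and 19.8, 8.78 and 9.15 CPM in odo1i. Peaxi162Scf00031g00715 measured 14.8, 20.01 and 16.1 CPM in wild type and 5.73, 5.34 and 4.37 CPM in odo1i. Their log2 fold changes were -2.13, -1.80, -2.61 and -1.76 in this order. These genes were named for their scaffolds' peaks, after the values were seen.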

How the data were processed

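For 6 corolla RNA libraries the authors deposited raw counts per ID, unnormalized, per the file's values; the oligo-dT priming is stated per the labels' protocols. Tools listed per the submitters' processing notes are MACS2, Bowtie2, cutadapt, TopHat2, HTSeq and DESeq2. Versions, strand setting and annotation: not given in the sources used here. Overlapping, antisense or near-identical genes may therefore share reads. The authors also deposited 1 peak list per ChIP construct, with each peak's fold enrichment (ratio) and −log10 q; the control is not stated.

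The count table was fitted whole with edgeR 4.0.16 in R 4.3.3 (filterByExpr, TMM, two-sided quasi-likelihood test, Benjamini-Hochberg adjustment) after the script was tested on simulated data. The standard error is the size of the log2 fold change divided by the square root of F. Alternatives used DESeq2 1.42.0, limma 3.58.1, other scalings and filters, a replicate block and the removal of each library. Peaks were handled with Python 3.11.15.

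Separate plants per replicate are not stated, so p-values reflect the spread of these libraries alone, possibly technical. Members, lists and tests were chosen with earlier results of these data known. Named are the 4 genes lowest by log2 fold change, 4 highest by wild type mean, 3 lowest by adjusted p, those at the limits and those sharing a scaffold; others were chosen after their values were seen.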

Additional observations from a re-analysis of the deposited data

How the results depend on the processing

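The genes kept by the definition numbered 72. They numbered 81 with TMM-scaled totals (71 of the 72 among them), 91 with a wild type minimum of 5 CPM, 46 with 20 CPM and 28 with a ratio limit of 0.333. Leaving out 1 library kept 84 to 197 IDs, the most without wild type replicate 2, with 61 to 71 of the 72 among them, which the definition nearly forces. Calls among the 72 were all lower, while calls among all genes are counted in either direction. By edgeR 34 of the genes and 111 of all genes (45 lower) were called. DESeq2 called 67 and 1093 (607 lower), limma-voom with quality weights 61 and 1122 (536 lower) and limma-voom 37 and 117 (47 lower). RLE size factors gave 34 and 112 (47 lower) and no low-count filter 48 and 179 (70 lower). Leaving out 1 library gave 0 to 54 and 0 to 435 (0 to 198 lower), the highest without wild type replicate 4. None of the 72 was called by edgeR without odo1i replicate 1 or 2, where no gene of the table was called lower. In those fits 2255 and 1673 of all genes, with all 72 among them, had an unadjusted p under 0.05. No more than 5 of the 72 were called without odo1i replicate 4 or wild type replicates 1 or 2. The cause was not tested. Under a replicate block 48 of the genes and 194 of all genes (90 lower) were called. Deviations of same-numbered libraries from their group means had correlations of 0.189, 0.0977 and 0.115. Between libraries of different number the correlations ran from -0.160 to -0.0152. Deviations from a group mean depend on each other, so these values are not independent. Whether replicate numbers mark pairs is not stated and was not tested.

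The definition nearly fixes the direction of the 17 genes named by rule. Of their 204 values under alternatives, 43 ended and 22 gained a call. The share of genes on a scaffold with a strong shared peak was 58.3% at a minimum enrichment of 8 (55.6% of all tested genes) and 8.33% at 12 (5.51%). The median density was 2.45 pODO1 peaks per 100 kb with a −log10 q of at least 5 (2.26 over all tested genes). The looser or stricter minimum sets these shifts by construction. A stricter overlap left the share, and long scaffolds left both values, within their intervals. Depth limits the genes with few odo1i reads, where a count of 0 to 5 sets the ratio.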
